A study of Rattus norvegicus with 10 samples.

Results

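Complement genes were read out in rat lung for the 3 chains of C1q (C1qa, C1qb and C1qc), the proteases C2, Cfb and Cfd, the central component C3, and the receptors C3ar1 and C5ar1. The members were the rows of the deposited count table whose gene symbol was one of these 9. They made up 10 of its 22250 rows, because Cfb was listed as 2 gene models, and 8 of the 10 rows had enough counts to be tested. Lung messenger RNA was sequenced in 10 libraries, 5 titled MOD and 5 titled XBS. Per the design text the animals model a neutrophil-rich asthma, set up with ovalbumin (the egg allergen) together with lipopolysaccharide (from bacterial cell walls), and were given a formula abbreviated SP. The labels expand neither MOD nor XBS, name no untreated group and tie neither title to SP. No source used here gives strain, sex, age, dose or time, or says that each library is its own animal. The p-values therefore rest on a spread between libraries that may be technical.

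Complement is a cascade of plasma proteins that marks microbes and dying cells for removal. C1q, a bundle of 3 related chains made mainly by macrophages and dendritic cells, recognises antibody or damaged surfaces and starts the classical route, in which C2 supplies a protease. Factor B and factor D, encoded by Cfb and Cfd, drive the alternative route, and all routes meet at C3. Cleavage of C3 and C5 releases peptides that attract and activate leukocytes through the receptors C3ar1 and C5ar1.

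The libraries held 11998979 to 15518929 counts. The labels name a human bronchial epithelial cell line beside lung tissue, whereas the table held rat genes and a whole-lung pattern, with summed alveolar type 2 markers at 16865 to 34076 CPM. CPM (counts scaled to library size, TMM-corrected) is the unit of level below unless FPKM is named. XBS 2 and XBS 3 stood apart in airway cells: summed club cell markers were 2389 and 2628 CPM there and 7950 to 12186 CPM in the other 8 libraries. Ciliated cell markers summed to 360 and 358 CPM there, against 569 to 921 CPM elsewhere. The log2 fold change of each tested member without these libraries is given below.

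C1q transcripts were higher in XBS than in MOD, by 1.37-fold to 1.43-fold for the 3 chains, but no chain passed the test across all genes. The C3 transcript, C2 and Cfd were at similar average levels in both groups, with differences smaller than their standard errors. Both receptors were higher on average in XBS, C3ar1 by 1.48-fold and C5ar1 by 1.33-fold, and neither passed. Of the tested members 0 of 8 rose and 0 of 8 fell at an adjusted p of 0.05 by edgeR's quasi-likelihood test, adjusted over all 14320 genes tested. Of all genes tested, 0.0768% passed, 0.0279% as higher and 0.0489% as lower in XBS. At an unadjusted p under 0.05 edgeR gave 4 of the 8 members, all higher in XBS (C1qa, C1qb, C1qc and C3ar1). This was the case for 13.2% of all genes tested in either direction and 7.4% in that direction. A fold of at least 1.3 higher in XBS was reached by 5 of the 8 members and 9.2% of all genes tested, and a positive fold change by 7 of the 8 and 51.9%. By DESeq2 1 of the 8 members passed (C1qb), where 2.58% of genes with an adjusted p did. The median log2 fold change of the 8 members was 0.43, and that of all genes tested 0.01. The members were chosen with earlier results of these data known, and the 3 C1q genes varied together, so these shares are a description. Tissue RNA cannot tell more cells of a type from more RNA per cell.

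**Figure D1:**
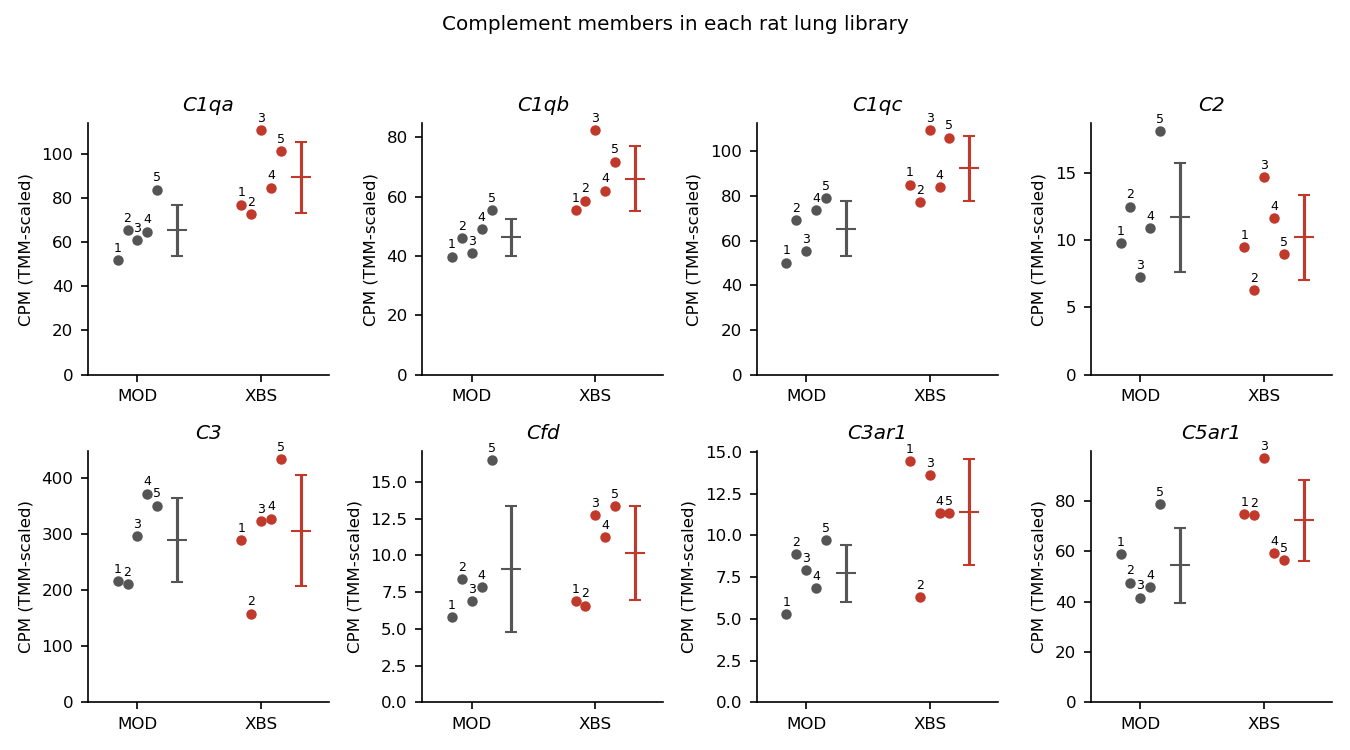
Each panel plots 1 complement member, with TMM-scaled CPM on a linear axis from 0 and the libraries of MOD (grey) and XBS (red) as points numbered by replicate; the line and bar beside them are the mean ± SD (n = 5). All 5 XBS libraries lie above the MOD mean for C1qa, C1qb, C1qc and C5ar1, while C2, C3 and Cfd overlap widely.

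C1qb, which encodes the B chain, separated the groups most clearly among the members. It stood at 39.8, 46.0, 41.0, 49.1 and 55.5 CPM in MOD 1 to 5, and at 55.6, 58.6, 82.6, 62.1 and 71.9 CPM in XBS 1 to 5. Every XBS library lay above every MOD library, but MOD 5 and XBS 1 were nearly equal. Groups that did not overlap, with XBS higher, were found for 1.61% of all genes tested, and for C1qb alone among the 8 members. The reverse, with XBS lower, was found for 1.13% of genes and 0 of the 8 members. The MOD mean of 46.3 ± 6.38 CPM compared with an XBS mean of 66.1 ± 11.0 CPM (SD, n = 5). The log2 fold change was 0.52 ± 0.13 (SE), with an adjusted p = 0.154 by edgeR and 0.0163 by DESeq2.

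C1qa, the A chain gene, had 51.9, 65.5, 61.0, 64.7 and 83.7 CPM in MOD 1 to 5. In XBS 1 to 5 it had 76.9, 72.8, 111, 84.6 and 101 CPM. The groups overlapped, since MOD 5 exceeded XBS 1 and XBS 2. The means of 65.4 ± 11.6 and 89.3 ± 16.2 CPM (SD, n = 5) gave a log2 fold change of 0.45 ± 0.14 (SE, edgeR adjusted p = 0.238). C1qc, the C chain gene, had 50.2, 69.1, 55.2, 73.6 and 79.0 CPM in MOD 1 to 5 and 85.0, 77.1, 109, 83.8 and 106 CPM in XBS 1 to 5. Only XBS 2 fell within the MOD range. Its means were 65.4 ± 12.2 and 92.3 ± 14.5 CPM (SD, n = 5), with a log2 fold change of 0.50 ± 0.14 (SE, edgeR adjusted p = 0.209).

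The 3 C1q genes kept nearly fixed proportions across the libraries. They lie side by side on the minus strand of chromosome 5 in the deposited table, C1qb from 155246447 to 155252003, C1qc from 155255005 to 155258392 and C1qa from 155261250 to 155264143; no source used here names the rat build of these positions. Per length, in the deposited FPKM, the C1qa to C1qb ratio was 1.28 to 1.56 over all 10 libraries, and the C1qc to C1qb ratio 1.25 to 1.52. The C1qa to C1qc ratio was 0.914 to 1.15. These ratios differed less between groups (by -0.06, -0.01 and -0.05 on the log2 scale for C1qa over C1qb, C1qc over C1qb and C1qa over C1qc) than the level of any chain did.

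**Figure D2:**
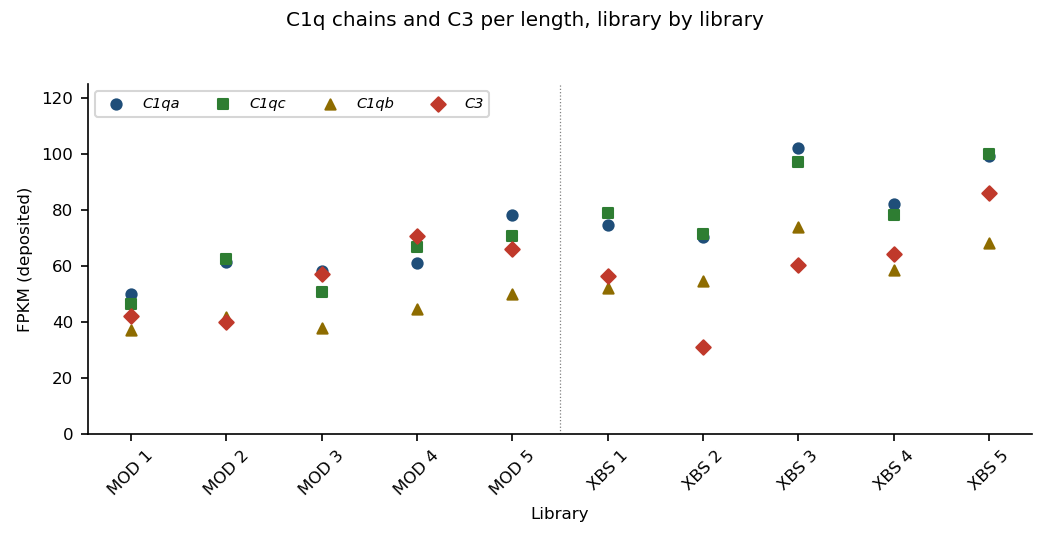
Deposited FPKM (count scaled to gene length and library size, linear axis from 0) of the C1q chain genes and C3 is plotted for each of the 10 libraries, 1 marker shape per gene. The 3 chain genes vary together, with C1qb lowest of the 3 in every library, while C3 drops to 30.8 in XBS 2 and reaches 86.0 in XBS 5.

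Since the chains varied together, the stretch before the transcript start is shown for the 2 chain genes found in the RefSeq promoter table (build GRCr8), which held 5 of the 9 members. Capitals mark GGAAGT, searched on both strands, so that ACTTCC is the same word on the other strand. It is the core bound by ETS factors such as PU.1, which myeloid cells use. The windows are the 150 bases before the start, 5′ to 3′ on the minus strand, at chr5:154419934-154420083 for C1qa and chr5:154407828-154407977 for C1qb.
C1qa: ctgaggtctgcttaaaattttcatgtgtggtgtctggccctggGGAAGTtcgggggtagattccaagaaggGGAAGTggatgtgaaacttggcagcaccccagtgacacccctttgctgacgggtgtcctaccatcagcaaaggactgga
C1qb: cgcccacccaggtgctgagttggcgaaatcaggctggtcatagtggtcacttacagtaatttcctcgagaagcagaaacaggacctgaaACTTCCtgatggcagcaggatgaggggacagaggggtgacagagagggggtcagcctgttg
C1qa held 2 matches, whose first letters lie 107 and 79 bases before the start, and C1qb held 1 match at 61 bases. Of 33469 rat promoter windows of this length, 13.4% held the word. It was chosen with the sequences in view, and its part in the shared variation of the chains was not tested. The windows of C3, Cfd and C3ar1 held no match to the word. An interferon-stimulated response element, present in 2.05% of windows, was matched in none of these 5.

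The macrophage setting of the C1q values was mixed. Csf1r, the receptor for the macrophage growth factor CSF-1, was at 213 to 309 CPM in MOD and 274 to 351 CPM in XBS. Its log2 fold change was 0.17 (edgeR adjusted p = 0.500), below those of the C1q genes. Relative to Csf1r, per length, C1qb stood at 0.547 to 0.791 in MOD and at 0.746 to 0.924 in XBS. Only MOD 5 reached the XBS range. The list of 13 monocyte and interstitial macrophage markers had 12 genes tested, 8 with a positive and 4 with a negative fold change, and 0 passed. Its summed level was 1042 to 2634 CPM in MOD and 1240 to 1682 CPM in XBS. MOD 5 was highest, and in it Apoe, the lipid carrier apolipoprotein E, stood at 1708 CPM. Log2 fold changes in the list ran from -0.49 for Apoe to 0.76 ± 0.45 (SE) for Trem2. Trem2 and Ms4a7 (0.63 ± 0.42, SE) lay above the C1q genes, and the other tested markers below them. Trem2 was uneven, at 4.90 to 8.82 CPM in MOD 1 to 4, 31.2 CPM in MOD 5 and 14.7 to 25.5 CPM in XBS, so that MOD 5 exceeded every XBS library. Ms4a7 was low, at 0.65 to 4.49 CPM.

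Alveolar macrophage markers had fold changes of the same sign as the C1q genes. All 10 tested genes of that list had a positive fold change and 0 passed, and their summed level was 444 to 563 CPM in MOD and 555 to 742 CPM in XBS, highest in XBS 3. Cd68, a lysosomal protein of macrophages, stood at 45.4 to 92.4 CPM in MOD and 64.0 to 109 CPM in XBS. Marco, a scavenger receptor that defines alveolar macrophages in other species, was at or near 0 in every library (highest 3 counts, or 0.19 CPM, in XBS 4). The part of macrophage content in the C1q values was not tested.

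Neutrophil markers too had positive fold changes, in all 10 tested genes, with 0 passing. Their summed level was 491 to 843 CPM in MOD and 635 to 1215 CPM in XBS. Much of this sum was Lcn2, which encodes lipocalin 2, a protein that binds bacterial iron carriers, and stood at 855 CPM in XBS 3. Without Lcn2, as computed after seeing the data, XBS 2 was highest at 786 CPM, followed by MOD 4 at 437 and XBS 3 at 360 CPM. The C1q genes were highest in XBS 3 and XBS 5. The part of neutrophil content in the results was not tested.

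**Figure D3:**
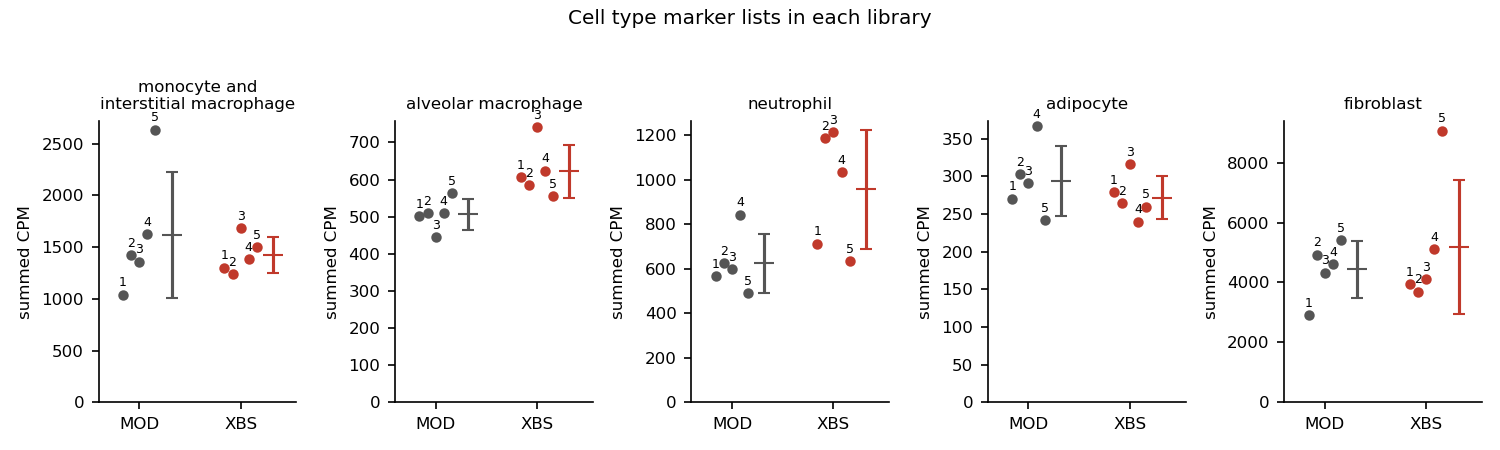
Summed TMM-scaled CPM (linear axis from 0) of 5 cell type marker lists is plotted for the libraries of MOD (grey) and XBS (red), numbered by replicate, with mean ± SD (n = 5) beside them. The alveolar macrophage sum is 444 to 563 in MOD and 555 to 742 in XBS, and XBS 5 stands apart at 9064 for fibroblast markers.

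C3, whose protein is cleaved in every route, was the member with the most counts. It stood at 216, 211, 297, 372 and 351 CPM in MOD 1 to 5. In XBS 1 to 5 it stood at 289, 158, 322, 327 and 434 CPM. XBS held both the lowest and the highest library, so the groups overlapped throughout. The means were 289 ± 74.4 and 306 ± 98.9 CPM (SD, n = 5), with a log2 fold change of 0.08 ± 0.25 (SE, edgeR adjusted p = 0.908). The direction rested on single libraries: it was -0.08 without XBS 5, -0.01 without MOD 1 or MOD 2, and 0.27 without XBS 2 and XBS 3. For C3 over C1qa per length, the ratio was 0.651 to 1.16 in MOD and 0.439 to 0.865 in XBS, and these ranges overlapped. The start of C3 is shown because C3 is the hub of the cascade, as 150 bases at chr9:2201340-2201489 of GRCr8, on its minus strand. Capitals mark the single match to TTGCNNAA (both strands), a word of the kind bound by C/EBP factors of the acute phase response, with its first letter 104 bases before the start.
C3: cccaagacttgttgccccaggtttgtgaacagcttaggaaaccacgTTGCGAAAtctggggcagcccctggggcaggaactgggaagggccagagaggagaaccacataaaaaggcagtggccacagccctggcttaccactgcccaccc
The word, chosen with the sequences in view, was held by 5.37% of the 33469 windows, and not by those of C1qa, C1qb, Cfd or C3ar1.

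Factor B could not be measured in these data. Cfb was listed at 0 in all 10 libraries in both of its gene models, which lie on the minus strand of chromosome 20 from 4536203 to 4561066 and from 4536212 to 4542073. The shorter model lies wholly inside the longer one. Of 9 gene symbols listed as 2 overlapping models on 1 strand, 2 had both models at 0 in every library. No source used here says how reads shared by overlapping models were counted, so the zeros say nothing of the level of Cfb.

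C2, the protease of the classical route and a paralogue of factor B, is touched by the same overlap. Its model, from 4542340 to 4561152, shares 99.5% of its span with the longer Cfb model. It had 9.75, 12.5, 7.24, 10.9 and 18.1 CPM in MOD 1 to 5 and 9.45, 6.29, 14.7, 11.6 and 8.96 CPM in XBS 1 to 5. The groups overlapped, with MOD 5 highest and XBS 2 lowest. The log2 fold change was -0.19 ± 0.27 (SE, edgeR adjusted p = 0.776), from means of 11.7 ± 4.04 and 10.2 ± 3.14 CPM (SD, n = 5). Its direction was not stable, at 0.02 without MOD 5. C2 was the only tested member with a negative fold change.

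Cfd, which encodes the serine protease factor D that fat cells secrete as adipsin, was low and uneven. MOD 1 to 5 had 5.81, 8.36, 6.88, 7.84 and 16.5 CPM, and XBS 1 to 5 had 6.90, 6.59, 12.7, 11.3 and 13.3 CPM. The MOD 5 value exceeded every other library. XBS 3, XBS 4 and XBS 5 lay between it and the rest. The log2 fold change was 0.16 ± 0.31 (SE, edgeR adjusted p = 0.840), 0.49 without MOD 5 and -0.00062 without MOD 4 and XBS 5. Of the adipocyte list, the defining markers Adipoq, Lep and Plin1 were each below 1 CPM in every library and Ucp1 was at 0. Retn, low as well, stood at 5.59 CPM in MOD 5, at 6.94, 3.54 and 4.30 CPM in XBS 3 to 5, and at 0 to 1.80 CPM elsewhere. Those were also the libraries with the most Cfd. Of the rest of the list, Cidec was highest in XBS 3, Plin4 in XBS 5, and Pck1, Cidea and Lpl in MOD 4. The part of fat cell content in the Cfd values was not tested. The summed list, mostly Lpl, was 242 to 367 CPM in MOD and 240 to 316 CPM in XBS. The Cfd model lies wholly inside that of Arhgap45 on the same strand, so reads of the 2 genes may not be separable.

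C3ar1, the receptor for the C3a peptide, had the largest fold change among the members with all libraries in. This rank was lost without MOD 1, MOD 4 or XBS 1, where C3ar1 stood at 0.45, 0.52 and 0.46 on the log2 scale and C1qb at 0.47, 0.54 and 0.57. Without XBS 2 and XBS 3 C3ar1 stood at 0.68. Its values were 5.30, 8.87, 7.90, 6.85 and 9.70 CPM in MOD 1 to 5 and 14.5, 6.29, 13.6, 11.3 and 11.3 CPM in XBS 1 to 5. Of the XBS libraries 4 lay above every MOD library, and XBS 2 lay within the MOD range. The means were 7.72 ± 1.72 and 11.4 ± 3.18 CPM (SD, n = 5), with a log2 fold change of 0.56 ± 0.23 (SE, edgeR adjusted p = 0.346). At 74 to 202 counts per library it was the member with the lowest minimum count among those with counts.

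C5ar1, the receptor for C5a on neutrophils and macrophages, was, per length, far more abundant than C3ar1. It had 58.8, 47.6, 41.7, 45.9 and 78.8 CPM in MOD 1 to 5 and 75.0, 74.6, 97.0, 59.4 and 56.4 CPM in XBS 1 to 5. Every XBS library was above the MOD mean, but only XBS 3 was above MOD 5. The log2 fold change was 0.41 ± 0.19 (SE, edgeR adjusted p = 0.390), from means of 54.6 ± 14.9 and 72.5 ± 16.1 CPM (SD, n = 5). It was 0.22 without XBS 2 and XBS 3. The other C5a receptor, C5ar2, was at a log2 fold change of 0.11 ± 0.16 (SE, edgeR adjusted p = 0.776).

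Per gene length the members spanned a wide range. Over the 10 libraries the mean deposited FPKM was 73.7 ± 17.3 for C1qa and 72.3 ± 17.5 for C1qc (SD, n = 10), which could not be ordered, as C1qa was higher in 5 of 10. C3 followed at 57.4 ± 16.2 and C1qb at 51.9 ± 12.4, with C3 above C1qb in 7 of 10 libraries. This order held for the means of MOD (55.2 and 42.3) but not for those of XBS (59.5 and 61.4). C5ar1 at 32.5 ± 8.61 was below C1qb in all 10 libraries, and Cfd at 9.59 ± 3.53 was below C5ar1 in all 10. C3ar1 at 4.72 ± 1.53 and C2 at 4.18 ± 1.27 came last and could not be ordered, with C3ar1 higher in 6 of 10. C5ar1 exceeded C3ar1 by 5.17-fold to 12.3-fold within a library.

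The other complement genes showed no call either. Of 45 listed genes 40 were in the table and 36 were tested; 24 had a positive and 12 a negative fold change, 0 rose, 0 fell and 36 did not pass by edgeR. At an unadjusted p under 0.05 edgeR gave 6 of the 36, against 13.2% of all genes tested, and DESeq2 gave 3 past its adjusted threshold, against 2.58%. Their median log2 fold change was 0.15. By role, all 5 tested classical genes were positive (median 0.53) and all 6 other receptors were positive (median 0.46). Of 12 regulators 9 were negative (median -0.06), and of 5 terminal genes 4 were positive (median 0.13). Of all genes tested 51.9% were positive. Several of these signs turned on XBS 5: without it, a count added after seeing the data, 3 of 5 classical, 5 of 6 receptor and 2 of 5 terminal genes were positive, with C1s, C4b, Cr2, C6 and C7 now negative. The classical, receptor and terminal medians were then 0.05, 0.33 and -0.02, and that of the regulators -0.13. Over all 36 genes the split was then 20 positive to 16 negative (median 0.06).

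**Figure D4:**
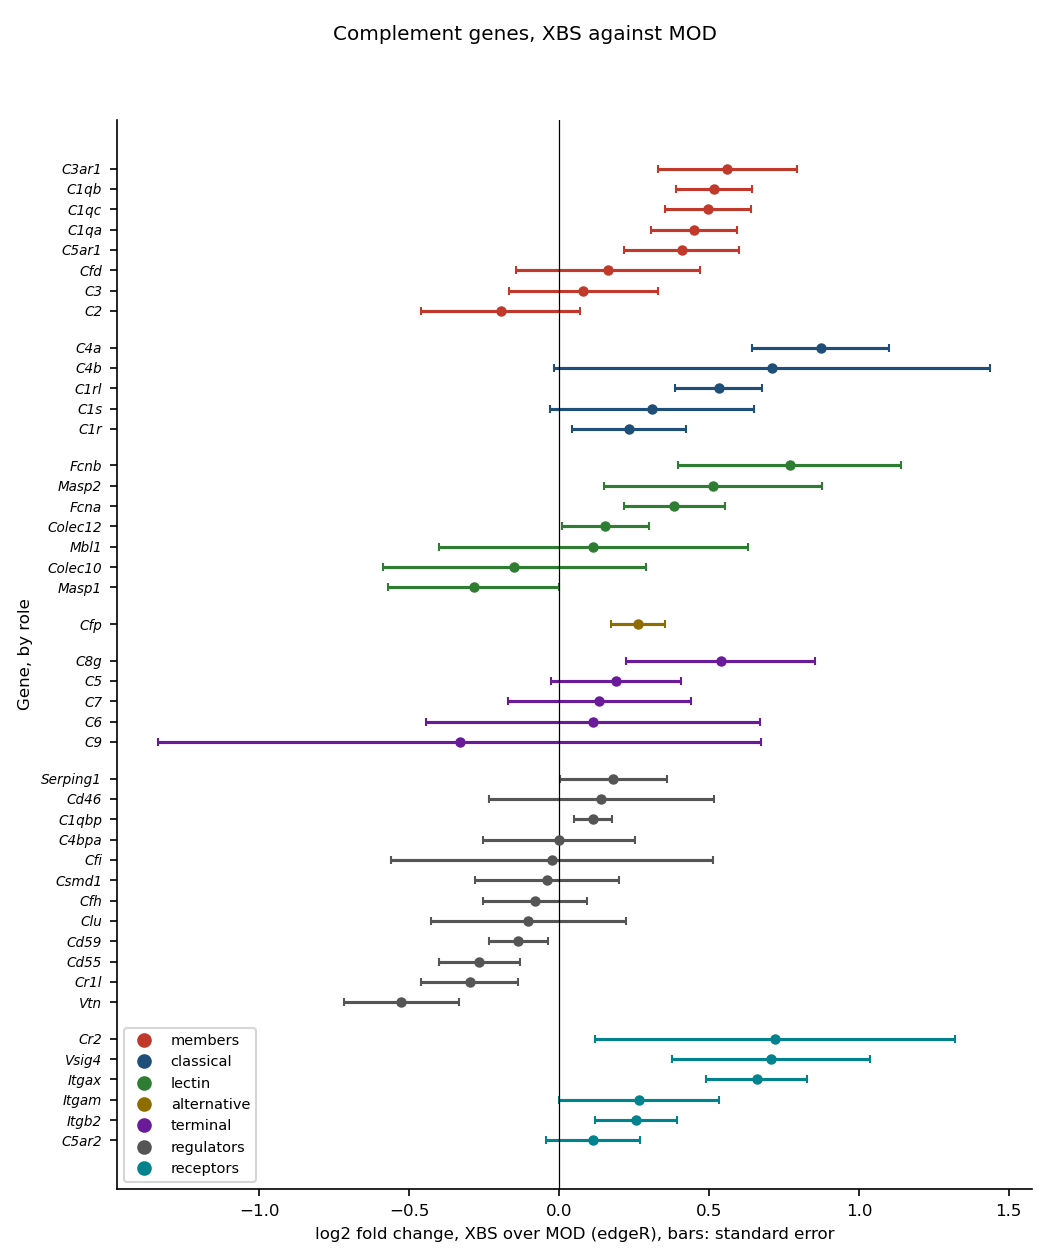
Points are log2 fold changes of XBS over MOD by edgeR for the 8 tested members and 36 other tested complement genes, grouped by role and coloured as in the key, with bars for the standard error. C3ar1, C5ar1 and the C1q chains lie between 0.41 and 0.56, C3 and Cfd lie within their standard error of 0, and most regulators lie at or below 0.

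Among these genes the smallest p belonged to Itgax, the alpha chain of complement receptor 4 on macrophages and dendritic cells. Its mean was 33.4 ± 4.53 CPM for MOD against 52.8 ± 13.2 CPM for XBS (SD, n = 5; edgeR adjusted p = 0.162, DESeq2 0.0172). Its model lies wholly inside that of Itgam, and it is also in the alveolar macrophage list. C4a, a C4 gene of the classical route, was at 9.43 ± 1.37 and 17.3 ± 5.79 CPM (SD, n = 5), with XBS 4 at 9.36 CPM inside the MOD range (edgeR adjusted p = 0.170, DESeq2 0.0227). C4a and C4b are near-identical copies whose reads may be split. C1rl, a relative of the C1r protease, was at 8.94 ± 1.70 and 12.9 ± 1.40 CPM (SD, n = 5), with only XBS 5 below the highest MOD library (edgeR adjusted p = 0.189, DESeq2 0.0377).

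The other named genes had larger p-values. Cfp, which encodes properdin, the stabiliser of the alternative route, averaged 40.4 ± 3.62 CPM for MOD against 48.6 ± 4.58 CPM for XBS (SD, n = 5, edgeR adjusted p = 0.267). Vtn, which encodes vitronectin, an inhibitor of the terminal complex, was lower in XBS at 44.3 ± 12.4 against 63.8 ± 11.2 CPM (SD, n = 5, edgeR adjusted p = 0.298). The ficolin genes Fcna and Fcnb, which start the lectin route, were 1.31-fold and 1.70-fold higher (edgeR adjusted p = 0.366 and 0.407). Fcnb was at 7.67 to 12.5 CPM in MOD 1, MOD 3 and MOD 5 and at 27.4 to 35.9 CPM in the other 7 libraries. Vsig4, a macrophage receptor for C3 fragments, was low, at 1.02 to 3.53 CPM over all libraries, and 1.63-fold higher in XBS (edgeR adjusted p = 0.389).

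XBS 5, the library with the highest C3, was also the highest in several complement genes, which were picked out after their values were seen. C1s stood at 336 CPM there and at 78.8 to 171 CPM in the other 9 libraries, and C1r at 365 against 142 to 252 CPM. C7, a terminal component, stood at 1242 against 332 to 828 CPM, and Cr2, the receptor of B cells and follicular dendritic cells, at 50.8 against 3.52 to 15.9 CPM. C4b, whose model lies almost wholly inside a second model on the same strand, stood at 217 against 7.96 to 54.0 CPM. The fibroblast markers summed to 9064 CPM in XBS 5 and 2907 to 5413 CPM elsewhere, and their part in these values was not tested.

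The genes whose pattern over the 10 libraries was most like a member's were taken by Pearson's r of log2 CPM among all genes tested, as a description. For C1qa these were Unc93b1, which escorts nucleic acid receptors to endosomes (r = 0.979, Spearman's rho = 0.976), Arhgap15, a Rac GTPase-activating protein (0.972), and the carboxypeptidase gene Scpep1 (0.943). Arhgap15 was also among the 3 most alike for C1qb (r = 0.931) and C1qc (r = 0.926). C1qb was otherwise nearest to Tpx2 and Ube2t, genes of dividing cells (r = 0.939 and 0.937), and C1qc to Mnda and Cd84 (r = 0.942 and 0.923). With group means subtracted, r was 0.966 for Unc93b1 with C1qa, 0.822 for Tpx2 with C1qb and 0.866 for Mnda with C1qc. C5ar1 was nearest to Serpinb8, Shc1 and Plp2 (r = 0.974, 0.966 and 0.965), and C3 to Gcnt4, Cops3 and Homer1 (r = 0.945, 0.940 and 0.914). Cfd was nearest to Macroh2a1, Apcdd1l and Entpd2 (r = 0.978, 0.974 and 0.952), C2 to Pigx, Naxe and Trappc9 (r = 0.948, 0.939 and 0.932), and C3ar1 to a locus without a gene name, Gpm6b and Tlr1 (r = 0.919, 0.915 and 0.911). None of these genes passed the test between groups by edgeR. Each was picked as among the 3 highest in r of all genes tested, over only 10 libraries. High r values are therefore expected from the choice alone, and how high was not computed.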

How the data were processed

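Per the file headers, a single table made by the authors gives raw counts beside FPKM for each library. The authors' counts were tested. The deposited FPKM values, scaled to gene length and library size, served only to compare levels between genes or as ratios. No source used here names the aligner, counter, annotation release, strandedness or rat build; the submitters' processing notes name only human and mouse builds. Library groups came from the titles.

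The filter was filterByExpr (at least 10 counts, 15 in total), which left 14320 genes. After TMM scaling they were tested by the robust quasi-likelihood method of edgeR 4.0.16 under R 4.3.3 for XBS over MOD, and p-values were adjusted over all of them by Benjamini and Hochberg. Log2 CPM used a prior count of 2. A floor of 3 counts corresponds to 0.19 to 0.247 CPM, counting error only. Alternatives were DESeq2 1.42.0, limma 3.58.1 (voom), other scalings and filters, a replicate block and left-out libraries. The scripts were tested on simulated data.

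Members and lists were chosen with earlier results of these data known; motifs were chosen with the sequences in view. Named genes were all members, the 8 other complement genes of smallest p, and the 3 genes most alike to each member. Of the listed symbols, Fcn1, Fcn2, Mbl2, Hc and Cd93 were not matched. Mesothelial markers summed to 179 to 242 CPM in MOD and 164 to 220 CPM in XBS, and endothelial markers to 2907 to 4207 and 2242 to 3311 CPM. Of 7 mesothelial genes tested 5 had a positive fold change. Krt19 went the other way (log2 fold change -0.65, edgeR adjusted p = 0.189, DESeq2 0.0271). It stood at 105.7 to 148 CPM in MOD and 54.1 to 105.5 CPM in XBS. Groups that did not overlap, with XBS lower, were found for 1.13% of all genes tested, and a DESeq2 call for 2.58%. Of 6 endothelial genes tested 5 had a negative fold change (median log2 fold change -0.35). In both lists 0 passed by edgeR.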

Additional observations from a re-analysis of the deposited data

Results flagged for a closer look

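Cfd in MOD 5, at 16.5 CPM, lay farther from the other MOD libraries (5.81 to 8.36 CPM) than Dixon's criterion for 5 values allows. It was 1 of 32 groups of 5 libraries examined for the 8 tested members and 8 other complement genes, and chance alone flags about 1 in 20. Apoe was also highest in MOD 5, at 1708 CPM.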

How the results depend on the processing

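Over 19 alternatives, C1qa, C1qb, C1qc, C3ar1 and C5ar1 kept a positive log2 fold change, and the members' median ran from 0.32 (without XBS 3) to 0.56 (without MOD 5). The number of members past the threshold was 0 under each alternative except DESeq2, which gave 1 (C1qb, log2 fold change 0.51) and 3 other complement genes. Over all genes the count was 11 by edgeR, 348 by DESeq2, 66 by limma voom with sample weights, 3 without XBS 2 and XBS 3, 0 without MOD 4 and XBS 5, and 4 to 15 with single libraries left out; the cause was not tested. In the run with 0 calls edgeR gave 1340 genes at an unadjusted p under 0.05, and DESeq2, added after seeing the data, 167 past its adjusted threshold. Signs turned for values that had not passed: C2 at 0.00105 by limma voom and 0.017 without MOD 5 (single libraries left out gave -0.36 to 0.02), C3 (0.25 without XBS 2, 0.27 without XBS 2 and XBS 3) at -0.00725 without MOD 1, -0.0131 without MOD 2 and -0.0774 without XBS 5, and Cfd at -0.00062 without MOD 4 and XBS 5. Without XBS 2 and XBS 3 the log2 fold changes of C1qa, C1qb, C1qc and C3ar1 were 0.42, 0.45, 0.49 and 0.68. Those of C2, Cfd and C5ar1 were -0.22, 0.21 and 0.22. Across alternatives the adjusted p of C1qb ran from 0.0163 to 0.389 and that of C1qa from 0.0972 to 0.521. Fitted with a replicate block, 1 gene and 0 members passed by edgeR (C1qb adjusted p = 0.181). Libraries of equal number correlated at -0.125 to 0.329 in their deviations from the group means, and 1 of 5 matched its own number best, so the numbers were not taken as pairs. C3ar1, Cfd and C2 had the fewest counts among the tested members, 74 to 255 per library.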
